A study of Mus musculus with 2 samples.

Results

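The SR and hnRNP genes were compared between mouse E14 embryonic stem cells and Sox2 T258A cells by RNA-seq of polyadenylated RNA. Rows of the deposited gene table were taken when the symbol was Srsf followed by digits or Hnrnp followed by letters or digits. This gave 31 of 24532 rows, of which 11 were SR genes and 20 were hnRNP genes. E14 is an established line of mouse embryonic stem cells, here with the wild-type (WT) genotype and kept in medium with serum and LIF, leukemia inhibitory factor. The Sox2 T258A cells came from E14 by CRISPR/Cas9 editing of 1 allele of Sox2, in which alanine replaced threonine 258, a residue that carries the sugar O-GlcNAc. According to the methods of the study, edited cells were grown from single cells with 2i, a pair of inhibitors (PD0325901 for Mek and CHIR99021 for Gsk3). The clones were kept in serum, LIF and 2i and were used after 2i had been removed. Genotype, clone and culture history therefore cannot be told apart. Each genotype had 1 library, so no difference has a replicate check, no test was run and no p-value is given.

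The library of E14 held 60263536 counted reads and that of Sox2 T258A held 44609228. The table has no base calls, so the genotype could not be read from it. All 8 pluripotent stem cell markers were present in both libraries. Their summed level was 12109 TPM (transcripts scaled to length and to the library) in E14 and 9073 in Sox2 T258A. Dppa5a held the largest part of this sum (TPM 6877 and 4429). Nanog was the only 1 past 2-fold (TPM 527 and 251). Of the 8 markers, 3 were higher in Sox2 T258A, namely Pou5f1 (1725 and 1759), Esrrb (290 and 311) and Utf1 (429 and 507). The 8 fibroblast or feeder cell markers summed to a TPM of 49.5 and 18.2, and Postn, Lum and Dcn had 0 reads in both. Thy1 (TPM 40.1 and 11.4) and Pdgfra (6.48 and 1.57) carried this sum, whereas Col1a1 (2.66 and 2.95), Col1a2 (0.259 and 0.985) and Col3a1 (0.0799 and 1.28) were higher in Sox2 T258A. The part of these marker differences in the results below was not tested. RNA from fewer cells of a type and less RNA per cell cannot be told apart in these bulk samples.

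SR proteins carry RNA recognition motifs and a region rich in arginine and serine repeats. They bind exons, recruit the U1 and U2 particles of the spliceosome to nearby splice sites, and several of them also escort mRNA out of the nucleus. The hnRNP proteins coat nascent transcripts and often act in the opposite sense, by silencing splice sites or by looping out exons. Many genes of both families limit their own expression by splicing in or out a segment that sends the transcript to nonsense-mediated decay. The table sums all transcripts of a gene, so productive and unproductive forms are not separated here. For 5 genes, Hnrnpa1, Hnrnpa2b1, Srsf3, Srsf7 and Srsf9, the row lists a noncoding RefSeq transcript beside the coding ones.

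Most SR and hnRNP genes had a higher TPM in the Sox2 T258A library, by a modest factor. In 1 library or both, 30 of the 31 genes reached a TPM of 10, and 29 of these 30 were higher in Sox2 T258A, set beside 57.3% of all 9094 genes past this filter. Only Hnrnpa1 was more than 2-fold higher (background 4.17%), and no gene of the families was more than 2-fold lower (background 4.07%). At 1.5-fold, 9 genes were higher (background 14.2%), 5 of them SR and 4 hnRNP, and 1 gene, Hnrnph3, was lower (background 10.5%). The median log2 TPM ratio was 0.58 over the 10 SR genes past the filter, 0.40 over the 20 hnRNP genes and 0.08 over all genes past the filter. By FPKM, a unit of fragments per kilobase scaled to the library, which lowers the log2 ratio of each member by 0.14 relative to TPM, the medians were 0.44, 0.26 and −0.06, and 26 of the 30 genes were higher against a background of 45%. By reads scaled with TMM, 29 were higher against 53.5%.

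**Figure D1:**
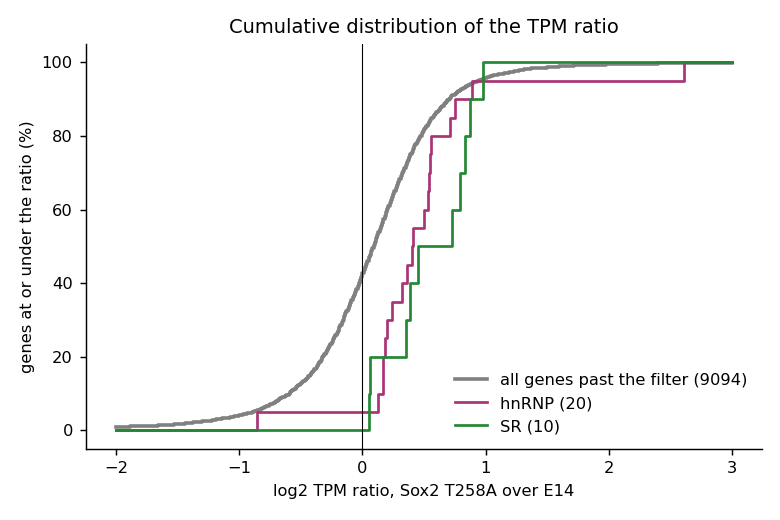
Cumulative share of genes (vertical axis, percent) at or under each log2 TPM ratio of Sox2 T258A over E14 (horizontal axis), for all genes past the filter (gray), hnRNP genes (purple) and SR genes (green). At a ratio of 0 the gray curve has reached 42.7% of genes, the hnRNP curve 5% and the SR curve 0%.

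Counting error was small beside most of these differences. A 95% Clopper-Pearson interval of each ratio, from the read counts and placed on the TPM scale, lay wholly above no change for 27 of the 30 genes (background 50.2%) and wholly below for 1 (background 35.2%). Such intervals hold the error of counting alone and not the variation between cultures. They treat each read as a separate draw, so they are too narrow where PCR made several reads of 1 molecule. Both families are abundant, and the pattern was also described with higher filters. Either library could carry a gene past them, so they do not match genes by level. Where either library reached a TPM of 50, 28 of 29 members were higher, against 59.9% of 3831 genes. Where either reached 100, 27 of 28 members were higher and their median log2 ratio was 0.47, whereas 59.2% of all 1968 such genes were higher and their median was 0.08. Hnrnpd (TPM 81.6 and 150) and Hnrnph2 (70.6 and 119) reached 100 in Sox2 T258A alone. Hnrnph3 (100.04 and 55.0) reached it in E14 alone.

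Hnrnpa1, the gene with the largest ratio, shares its sequence with copies elsewhere in the genome. Hnrnpa1 (Entrez gene 15382, chr15:103239943-103246698, GRCm38, plus strand) encodes a core hnRNP protein that binds silencer elements in exons and introns. Its TPM was 143 in E14 (7809 reads) and 867 in Sox2 T258A (31172 reads), a log2 ratio of 2.60 (counting interval 2.57 to 2.64). GENCODE lists 8 copies of at least 95% identity, and 2 of them, Gm10052 and Gm5643, have a row in the table. Gm10052, a processed pseudogene at chr9:123689233-123690192, is identical to the Hnrnpa1 coding sequence over all 960 of its bases. Gm5643, a processed pseudogene at chrX:142297565-142298530, has 13 substitutions over 963 bases (98.7% identity), and the longest stretch without one is 280 bases. The stretch of coding bases 10 to 124, counted from 1 at the start codon, is shown for the 3 because it holds 4 of the 13 substitutions that set Gm5643 apart, while Gm10052 has none. In Hnrnpa1 it lies in exon 1 (chr15:103240523-103240528) and exon 2 (chr15:103241080-103241188). Capitals mark the bases of Gm5643 that differ from Hnrnpa1, which are G13A, C20T, A123C and G124A.
Hnrnpa1: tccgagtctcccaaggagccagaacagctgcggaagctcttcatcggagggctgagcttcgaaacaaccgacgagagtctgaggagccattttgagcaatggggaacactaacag
Gm10052: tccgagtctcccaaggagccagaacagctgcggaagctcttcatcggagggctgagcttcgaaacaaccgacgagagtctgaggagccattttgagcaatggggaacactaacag
Gm5643: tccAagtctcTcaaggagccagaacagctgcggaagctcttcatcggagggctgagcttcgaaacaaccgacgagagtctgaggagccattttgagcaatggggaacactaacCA

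The copies moved against each other. Gm10052 had 64040 reads in E14 and 4282 in Sox2 T258A (TPM 1465 and 146), the reverse of Hnrnpa1. Gm5643 had 1729 and 7890 reads, the same direction as Hnrnpa1. Of the reads summed over the 3 rows, Hnrnpa1 held 10.6% in E14 and 71.9% in Sox2 T258A, Gm10052 held 87.0% and 9.88%, and Gm5643 held 2.35% and 18.2%. The summed reads were 73578 and 43344, a log2 ratio of −0.19 on the TPM scale (counting interval −0.20 to −0.17). Here the TPM scale is the log2 read ratio shifted by 0.58, the median offset over genes past the filter. By CPM (reads over library size, without gene length) the ratio was −0.33. The deposited TPM summed over the 3 rows was 1639 in E14 and 1044 in Sox2 T258A. This TPM sum includes Gm5643, whose TPM (31.7 and 30.0) does not follow its FPKM (16.3 and 100.5), so the size of its drop is uncertain. The direction for Hnrnpa1 thus differed between its own row and the sum. How the counting tool divided reads of identical sequence is not given in the sources used here, its part in these values was not tested, and the other 6 copies were not analysed here.

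**Figure D2:**
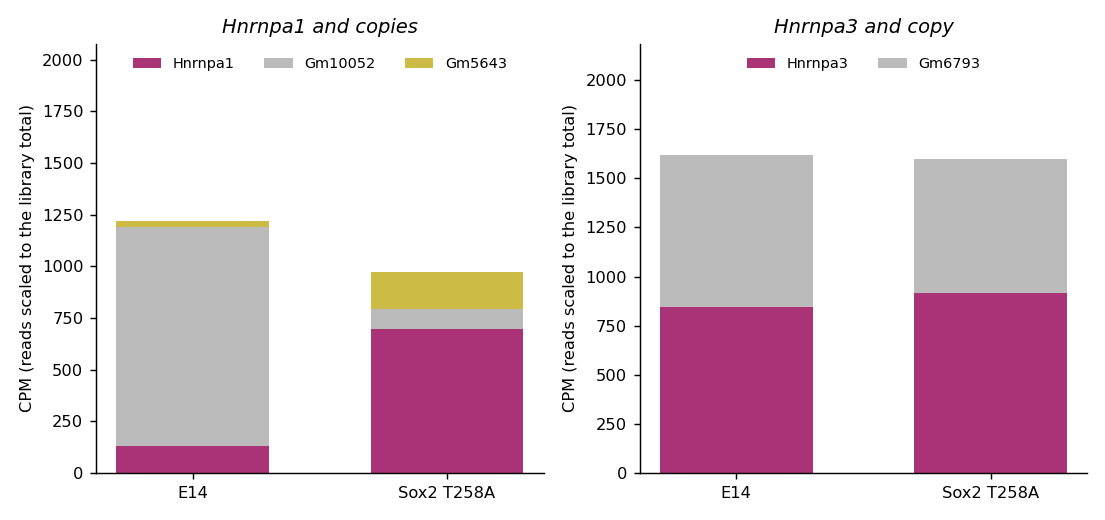
CPM (vertical axis, from 0) in the 2 libraries, stacked by row of the table, for Hnrnpa1 with 2 copies (left) and Hnrnpa3 with 1 copy (right). The purple block of Hnrnpa1 is 130 in E14 and 699 in Sox2 T258A while the whole bar is 1221 and 972, and the bars of Hnrnpa3 with Gm6793 are 1618 and 1600.

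Hnrnpa3, a close relative of Hnrnpa1, has 21 copies of at least 95% identity, and 1 of them, Gm6793 (chr8:112013433-112015036), has a row. Hnrnpa3 had a TPM of 321 and 377 (50973 and 40979 reads, log2 ratio 0.23), and Gm6793 had 1013 and 988 (46542 and 30408 reads). Unlike the Hnrnpa1 rows, these shared their reads in nearly the same proportion in both libraries, with 52.3% of the sum at Hnrnpa3 in E14 and 57.4% in Sox2 T258A. The log2 ratio of the summed reads was 0.13 on the TPM scale and −0.02 by CPM. The deposited TPM of the rows summed to 1334 in E14 and 1366 in Sox2 T258A. Copies of 8 other members have no row in the table, 6 of Hnrnpf, 4 of Srsf3, 2 each of Hnrnpk and Srsf10, and 1 each of Hnrnpc, Hnrnph2, Hnrnpr and Srsf5. No such copy was found for the remaining 21 members.

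**Figure D3:**
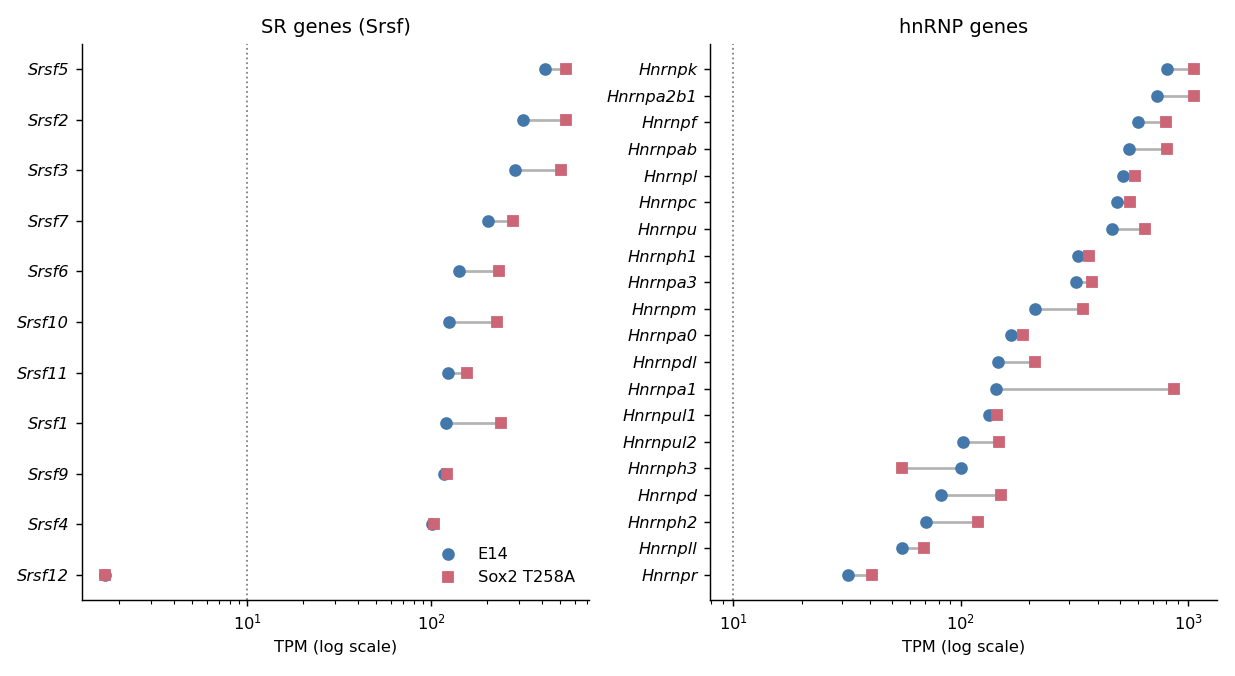
TPM (horizontal axis, log scale) of each SR gene (left) and hnRNP gene (right) in the E14 library (blue circles) and the Sox2 T258A library (red squares), ordered by the level in E14, with a dotted line at the filter of TPM 10. The red square lies left of the blue circle by more than 1.5-fold at Hnrnph3 alone, and Srsf12 is under the filter in both libraries.

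Among the SR genes, the summed TPM was 1943 in E14 and 2944 in Sox2 T258A, a ratio of 1.51, which took the family from 0.194% to 0.294% of all transcripts. Srsf1, Srsf10 and Srsf3 differed most. Srsf1 (Entrez gene 110809, chr11:88046499-88053757), which promotes the use of nearby splice sites and was the first SR protein purified as a splicing factor, had a TPM of 120 and 237 (20626 and 26997 reads). Its log2 ratio of 0.98 was just under 2-fold, and its counting interval began at 0.95 and reached 2-fold. Srsf3, the smallest SR protein and an adaptor for mRNA export, had a TPM of 286 and 508 (log2 ratio 0.83, interval 0.81 to 0.85). Srsf10, known as a repressor of splicing when it loses its phosphates, had 124 and 227 (log2 ratio 0.87, interval 0.83 to 0.90). These 3 genes differ in role, and their raw reads were higher in Sox2 T258A although that library was the smaller one.

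Srsf2, a component of nuclear speckles, had a TPM of 313 and 541 (log2 ratio 0.79, interval 0.76 to 0.81), and it had the highest level of the SR genes in Sox2 T258A. Srsf6, which has a pair of RNA recognition motifs, had 141 and 233 (log2 ratio 0.73, interval 0.70 to 0.76). With these, 5 SR genes were past 1.5-fold. Srsf5 and Srsf4 had smaller ratios. Srsf5, the most abundant SR gene in E14, had a TPM of 413 and 539 (log2 ratio 0.38, interval 0.36 to 0.41), and Srsf4 had 100 and 104 (log2 ratio 0.05, interval −0.00 to 0.10).

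Srsf7, an export adaptor with a zinc knuckle, had a TPM of 204 and 277 (log2 ratio 0.44). Srsf11, a protein of the SR family that contacts U2AF, had 123 and 156 (log2 ratio 0.35). Srsf9, which has a short RS region, had 117 and 121 (log2 ratio 0.04, interval −0.03 to 0.11). The intervals of Srsf4 and Srsf9 thus held no change. Both ratios turned negative by FPKM (−0.09 and −0.10) and when centred on the median of all genes (−0.03 and −0.04), and both were larger after removal of the trend over GC content and length (0.25 and 0.36). Srsf12, which antagonizes other SR proteins, had 156 and 105 reads and a TPM of 1.68 and 1.69, under the filter.

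As a result the SR family was differently composed in the 2 libraries. Srsf5 held 21.3% of the summed SR TPM in E14 and 18.3% in Sox2 T258A, where Srsf2 held 18.4%. The share of Srsf1 was 6.20% and 8.06%, and that of Srsf3 was 14.7% and 17.2%. Srsf4 held 5.15% and 3.52%, and Srsf9 held 6.04% and 4.10%.

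**Figure D4:**
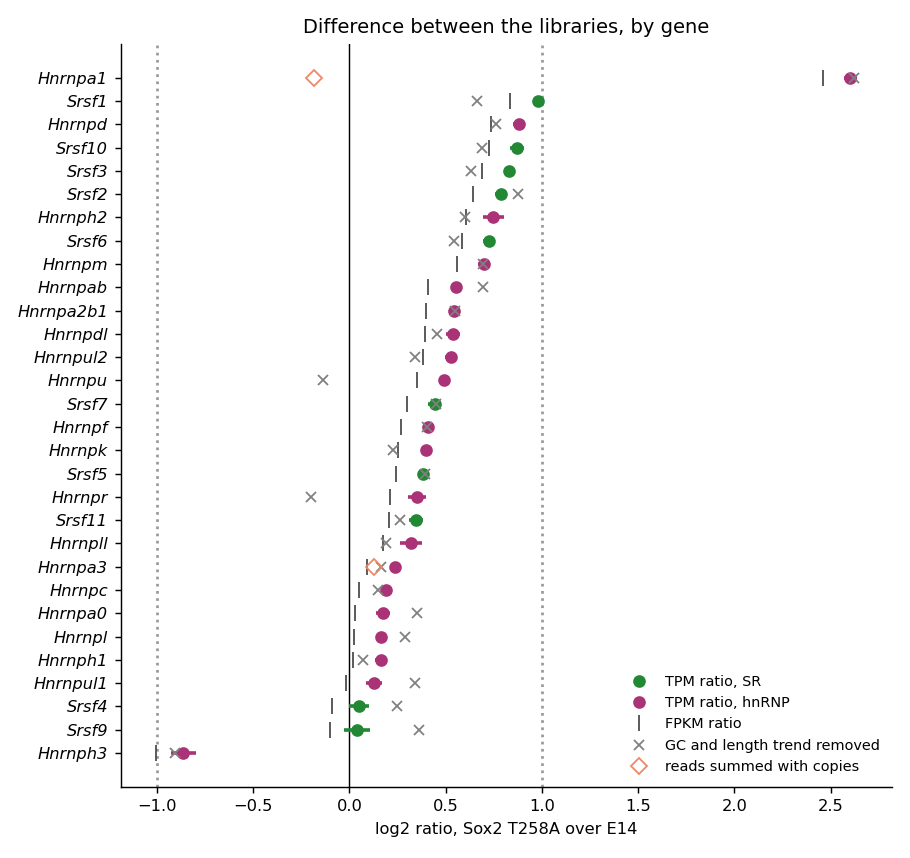
Log2 ratio of Sox2 T258A over E14 (horizontal axis) for the 30 genes past the filter, with the TPM ratio and its 95% counting interval (green SR, purple hnRNP), the FPKM ratio (ticks), the ratio after removal of its trend over GC content and length of the transcript (crosses) and, for Hnrnpa1 and Hnrnpa3, the reads summed with their copies (diamonds). Dotted lines mark 2-fold. Hnrnpa1 moves from 2.60 to −0.19 when copies are summed, and Hnrnpu and Hnrnpr cross the line of no change when the trend is removed, to −0.14 and −0.20.

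The hnRNP genes had a summed TPM of 6047 in E14 and 8602 in Sox2 T258A, a ratio of 1.42, or 5904 and 7735 without Hnrnpa1, a ratio of 1.31. The most abundant members were Hnrnpk, which binds C-rich RNA and DNA through KH domains, and Hnrnpa2b1, a partner of Hnrnpa1 in the core hnRNP particle. Hnrnpk had a TPM of 808 and 1063 (log2 ratio 0.40) and Hnrnpa2b1 had 732 and 1065 (log2 ratio 0.54). Hnrnpa2b1 and Hnrnpk were therefore at nearly the same level in Sox2 T258A. Hnrnpa0, an intronless member of the A group that binds AU-rich elements, had 166 and 188 (log2 ratio 0.17).

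The D group, whose proteins bind AU-rich elements and govern mRNA decay as well as splicing, was higher throughout. Hnrnpd had a TPM of 81.6 and 150 (17280 and 21364 reads, log2 ratio 0.88, interval 0.85 to 0.91), the largest ratio of the family after Hnrnpa1. Its paralog Hnrnpdl had 146 and 212 (log2 ratio 0.54), and Hnrnpab had 550 and 808 (log2 ratio 0.55). Hnrnpm, which binds GU-rich sequence, had 211 and 344 (log2 ratio 0.70, interval 0.67 to 0.73). Hnrnpm shares 1169 exon bases on the same strand with March2, whose 1292 and 704 reads went the other way.

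The F/H group, which binds runs of G, held genes on both sides of no change. Hnrnph2, on the X chromosome, had a TPM of 70.6 and 119 (5447 and 6122 reads, log2 ratio 0.75, interval 0.69 to 0.80). Hnrnpf had 602 and 799 (log2 ratio 0.41), and Hnrnph1 had 327 and 366 (log2 ratio 0.16). Hnrnph3 (Entrez gene 432467, chr10:63014664-63023980), the shortest protein of the group, was the single gene of either family that was lower, with a TPM of 100 and 55.0 (6750 and 2498 reads). Its log2 ratio of −0.86 (interval −0.93 to −0.80) became −1.01 by FPKM, just past 2-fold. Hnrnph3 shares a short stretch of exon with Rufy2 on the opposite strand, which had 2274 and 1423 reads, and no copy of it was found.

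Hnrnpu, a nuclear matrix protein that binds RNA and chromatin, had a TPM of 461 and 649 (log2 ratio 0.49). Its relative Hnrnpul2 had 102 and 147 (log2 ratio 0.53), and Hnrnpul1 had 133 and 145 (log2 ratio 0.13), which turned to −0.02 by FPKM. Hnrnpu has a transcript of 7640 bases, and its ratio became −0.14 after removal of the trend over GC content and length.

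The remaining hnRNP genes had ratios under 1.5-fold. Hnrnpc, which coats U tracts and keeps U2AF from cryptic splice sites, had a TPM of 488 and 558 (log2 ratio 0.19). Hnrnpl, which binds CA repeats, had 518 and 581 (log2 ratio 0.17). Hnrnpll, its paralog known for the splicing of Ptprc in lymphocytes, had 55.5 and 69.2 (log2 ratio 0.32). Hnrnpr, a relative of Syncrip and the hnRNP gene with the lowest level in both libraries, had 31.9 and 40.7 (log2 ratio 0.35, or −0.20 with the trend removed).

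Properties that the choice of genes did not use were also compared. Transcripts of the 30 members past the filter were low in GC, with a median of 44.2% against 50.5% for all genes past the filter. Without Hnrnpa1, the log2 ratio of 29 members had a Spearman correlation of −0.43 with transcript GC content and 0.35 with transcript length, and over 9078 genes the values were −0.24 and 0.38. The Pearson correlations were weaker, at −0.28 and 0.12 over the 29 members and −0.19 and 0.27 over the 9078 genes. With Hnrnpa1 included, the Spearman values of the members were −0.38 and 0.25. The genes share the same 2 libraries, so these correlations are descriptions. The highest GC among members past the filter was at Srsf4 (56.8%) and Srsf9 (56.2%), the pair nearest to no change, and Srsf1, with the largest SR ratio, had 41.7%. Some members departed from this order, such as Hnrnpab (52.8%, log2 ratio 0.55) and Hnrnph3 (44.1%, log2 ratio −0.86). After removal of the trend over GC content and length, the medians were 0.50 for SR and 0.34 for hnRNP genes, against 0.08 over all 9078 genes. Of the 30 members 27 were then higher, against 58.8% of all these genes.

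Reads per unit of FPKM follow the mean length of the transcripts that the counting assigned to a gene. This quantity differed between the libraries by −1.94% at Hnrnpa1, −1.69% at Srsf5, −1.07% at Srsf3 and 1.99% at Hnrnpa3 (positive where it was longer in Sox2 T258A). The 21 members with several listed transcripts lay between −1.94% and 1.99%, and 95% of all 2553 such rows with at least 1000 reads in both libraries lay between −3.62% and 5.15%. All 21 members thus lay inside the range of such rows.

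The promoters of the 2 families were read from RefSeq (GRCm38.p6) as windows of 250 bases before to 50 bases after the start, which 29 of the 31 members had. Only the first listed window of each gene was used. For many members, Hnrnph3 among them, its start is not the outermost start of the gene, and other starts were not searched. The windows of the members were rich in CpG, with a median of 31 CpG dinucleotides in 300 bases against 22 in 7297 genes past the filter and 7 in all 27025 windows. The CCAAT motif (CCAAT, either strand) was present in 12 of 18 hnRNP windows (66.7%) and 4 of 11 SR windows (36.4%), against 40.5% of genes past the filter and 37.9% of all windows. The ETS motif CCGGAAG was in 6 of 29 (20.7%, against 21.7% and 9.12%), and TATAAA was in 4 (13.8%, against 6.06% and 14.2%). GCATGCGC, the core of NRF1 sites, was in 1 (3.45%, against 6.55% and 2.80%). The SOX motif CATTGTT and the YY1 motif AAGATGGCG were in 0 of 29, against 1.58% and 3.96% of genes past the filter. A match to such letters is a description and not a site.

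The 250 bases before the start, on the strand of the gene, are shown for Hnrnpab and Hnrnpr, which hold 3 and 4 CCAAT motifs, and for Srsf6, which holds no motif searched. Capitals mark CCAAT or its complement ATTGG. The stretches are chr11:51606882-51607131 (minus strand), chr4:136310692-136310941 (plus strand) and chr2:162931258-162931507 (plus strand) in GRCm38.
Hnrnpab: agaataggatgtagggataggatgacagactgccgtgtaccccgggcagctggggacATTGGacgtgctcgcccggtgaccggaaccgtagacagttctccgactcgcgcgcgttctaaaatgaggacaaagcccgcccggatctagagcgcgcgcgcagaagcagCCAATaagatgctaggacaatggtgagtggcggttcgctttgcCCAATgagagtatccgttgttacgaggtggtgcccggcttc
Hnrnpr: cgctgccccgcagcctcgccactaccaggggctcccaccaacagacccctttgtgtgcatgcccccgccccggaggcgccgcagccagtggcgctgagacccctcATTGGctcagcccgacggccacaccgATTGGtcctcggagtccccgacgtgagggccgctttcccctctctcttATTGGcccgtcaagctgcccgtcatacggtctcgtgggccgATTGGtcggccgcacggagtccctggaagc
Srsf6: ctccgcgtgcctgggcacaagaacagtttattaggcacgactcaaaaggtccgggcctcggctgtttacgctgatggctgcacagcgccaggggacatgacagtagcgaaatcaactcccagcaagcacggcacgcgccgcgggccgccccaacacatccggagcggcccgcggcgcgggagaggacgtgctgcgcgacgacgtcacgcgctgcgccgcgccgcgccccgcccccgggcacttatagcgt
The log2 TPM ratios of these genes were 0.55, 0.35 and 0.73. Hnrnph2 also holds 3 CCAAT motifs before its start (log2 ratio 0.75), and the window of Hnrnph3 (log2 ratio −0.86) holds none of the motifs searched. The windows of Hnrnpdl (0.54), Hnrnpu (0.49), Srsf9 (0.04) and Srsf12, which was under the filter, hold none either.

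Other splicing genes were taken from 9 lists written from general knowledge. To set beside each list, 57.3% of all genes past the filter were higher by TPM and 45% by FPKM, with medians of 0.08 and −0.06. The share of all genes more than 2-fold higher by TPM was 4.17%. The SR-related proteins, which carry RS regions outside the Srsf names, had 18 of 20 higher and a median log2 TPM ratio of 0.45 (17 higher by FPKM, median 0.30). In this list 4 genes were more than 2-fold higher by TPM. Tra2b, a sequence-specific activator of exon inclusion, had a TPM of 83.7 and 211 (log2 ratio 1.34). Bclaf1 (1.05) and Thrap3 (1.02), a related pair of RS-rich proteins, and Son (1.01), a scaffold of nuclear speckles, fell under 2-fold by FPKM (0.91, 0.87 and 0.86). The lowest were Luc7l (−0.29) and Scaf11 (−0.13). Proteins of hnRNP complexes under other symbols had 15 of 19 higher and a median of 0.45 (13 higher by FPKM, median 0.31), from Syncrip (0.92) and the cold-induced Rbm3 (0.85) to the poly(C)-binding Pcbp2 (−0.37) and Pcbp3 (−0.43).

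The enzymes that modify SR proteins did not follow them as a group. The list of kinases and import factors, which also holds the phosphatase gene Ppp1ca (0.01), had 10 genes past the filter. Of these, 7 were higher with a median of 0.14, and by FPKM 5 were higher with a median of −0.00. Prpf4b (0.81) and Srpk1 (0.48), the cytoplasmic SR kinase, were highest, while the nuclear kinases Clk1 (TPM 121 and 83.8, log2 ratio −0.53) and Clk3 (−0.44) were lowest. The list held Akap17a, which was not analysed here. Arginine methyltransferases and importers of hnRNP proteins had 6 of 8 higher in both units and a median of 0.33, led by Tnpo1 (0.55), which imports Hnrnpa1, and Carm1 (0.47), with Prmt7 (−0.00) and Prmt5 (−0.09) lowest.

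The medians of the core spliceosome lists lay nearer to that of all genes (0.08) than those of the SR (0.58) and hnRNP (0.40) families. In the U2 and tri-snRNP lists the share of genes higher was still above the 57.3% of all genes. U2 and U2AF genes had 16 of 21 higher (median 0.28; 12 by FPKM, median 0.13), from Sf3a1 (0.68) and Sf3b3 (0.66) to Snrpa1 (−0.30) and Sf3b5 (−0.37). U1 and Sm genes, a list that also holds Tial1, had 8 of 14 higher (median 0.10), near the 57.3% of all genes past the filter. By FPKM 7 were higher, with a median of −0.05, against 45% of all genes. Snrpn, an imprinted Sm protein gene, was more than 2-fold higher in this list, with a TPM of 13.2 and 105 (log2 ratio 2.99), and Snrpf (−0.24) and Snrpc (−0.59) were lowest. The tri-snRNP and Prp19 genes had 21 of 25 higher (median 0.20; 15 by FPKM, median 0.06), from Prpf8 (0.78) and Sart1 (0.69) to Lsm8 (−0.19) and Lsm2 (−0.62).

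Genes of nonsense-mediated decay, the route that removes unproductive SR and hnRNP transcripts, had 14 of 15 higher with a median of 0.25 (12 by FPKM, median 0.11). Smg1 (0.77), the kinase of Upf1, and Magohb (0.76) were highest, and Upf3b (0.11) and Smg9 (−0.30) were lowest. Of 30 splicing regulators listed as cell-type-specific, 12 passed the filter and 8 of these were higher, with a median of 0.37 (7 by FPKM, median 0.22). Their restriction to cell types was not checked. Elavl2, a neuronal RNA-binding protein, was past 2-fold by TPM (10.2 and 21.2, log2 ratio 1.06, or 0.92 by FPKM), followed by Khdrbs1 (0.82), and Mbnl2 (−0.57) and Rbm38 (−0.58) were lowest. The lists share Tial1 and were described by counts and medians alone, so no order among them was tested.

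**Figure D5:**
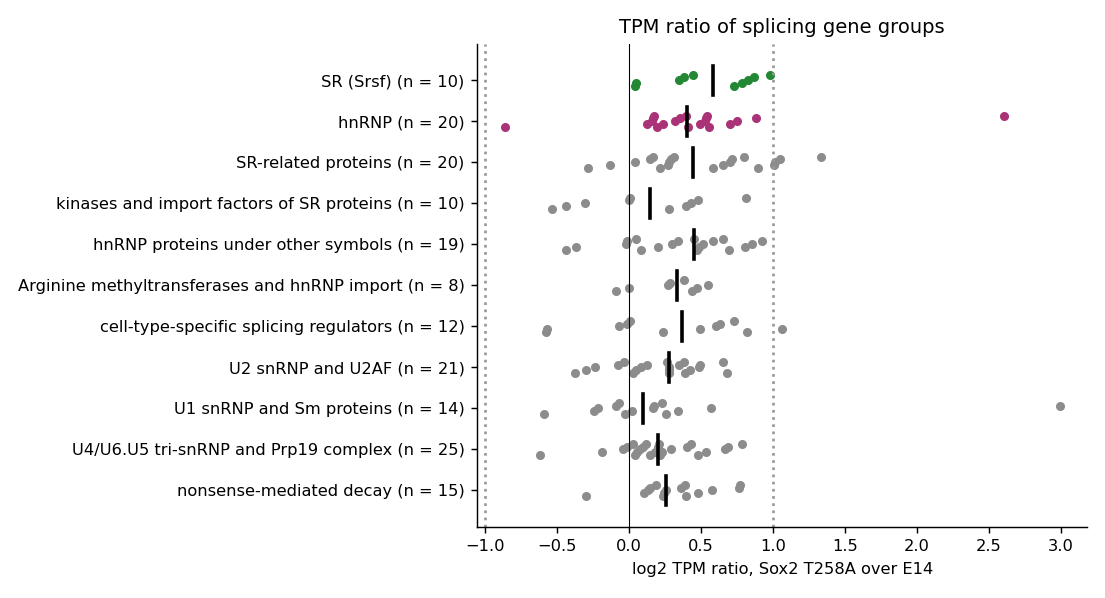
Log2 TPM ratio of Sox2 T258A over E14 (horizontal axis) for genes past the filter in the SR family, the hnRNP family and 9 other lists of splicing genes, 1 point per gene, with a black bar at the median and dotted lines at 2-fold. The medians run from 0.10 for U1 and Sm genes to 0.58 for SR genes.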

How the data were processed

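Polyadenylated RNA of E14 and Sox2 T258A cells was sequenced on an Illumina NovaSeq instrument, 1 library each. The submitters' processing notes name bcl2fastq 2.20.0, Trimmomatic, HISAT2 2.1.0 and StringTie 2.1.3b with the mm10 build. How strand and multimapping reads were handled is not given in the sources used here. The read counts deposited are raw whole numbers. The deposited FPKM is set to gene length and library size, and the deposited TPM was 1.94 times FPKM in E14 and 2.15 times in Sox2 T258A at all members.

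Following the filter of the study, ratios of TPM with no pseudocount were used where either library reached a TPM of 10, with a threshold of 2-fold. Counting intervals (95%, Clopper-Pearson) were computed from the counts with SciPy 1.17.1. The computation was checked on simulated reads with known fold changes. These reads were independent Poisson draws without PCR duplicates or variation between cultures, so the check covers neither. Copies were found with BLAST 2.17.0 between GENCODE M21 transcripts (at least 95% identity over at least 80% of the copy and at least 300 bases). Gene spans came from RefSeq (GRCm38.p6), and transcript GC content and length from GENCODE transcripts matched by accession for 23995 rows and by symbol for 306. Alternatives were TMM (edgeR 4.0.16), size factors by median of ratios (DESeq2 1.42.0), the FPKM ratio, centring, rescaling without the 10 highest genes, pseudocounts of 0.1 and 1, other filters and thresholds, summing of reads with copies, and removal of the trend over transcript GC and length, taken as medians of 20 bins.

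Members and lists were chosen with earlier results of these data known. Values per library are given for the members past 2-fold, the 6 highest and 6 lowest ratios and the 4 highest TPM of each family, and members with copies. Of the other lists, genes past 2-fold and the 2 highest and 2 lowest are named with their log2 ratio. 1 gene that this rule names is not reported here.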

Additional observations from a re-analysis of the deposited data

Results flagged for a closer look

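Gm5643, a copy of Hnrnpa1 outside the families compared, was listed at an FPKM of 100.5 in Sox2 T258A and 16.3 in E14, with 7890 and 1729 reads, whereas its TPM was 30.0 and 31.7. It was picked out because reads and FPKM carried a signal above the E14 level that the TPM column did not show. This row therefore departs from the constant multiple that links TPM to FPKM at all SR and hnRNP genes, and the cause was not tested.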

How the results depend on the processing

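With reads summed over copies, 0 genes were more than 2-fold higher and Hnrnpa1 reversed to −0.19. At 1.5-fold, 9 were higher and 1 lower, and by FPKM 1 was more than 2-fold lower. The SR median moved to 0.54 (TMM), 0.50 (centred and trend removed) and 0.44 (FPKM, a filter of TPM 1 and no filter, which add Srsf12). The hnRNP median moved to 0.36 (TMM), 0.38 (median-of-ratios), 0.32 (centred), 0.26 (FPKM), 0.37 (copies summed) and 0.34 (trend removed). The number of members higher was 29 under TMM and median-of-ratios, 27 centred, 26 by FPKM, 28 with copies summed and 27 with the trend removed. The shares of all genes past the filter were 53.5% (TMM), 55.2% (median-of-ratios), 50% (centred), 45% (FPKM) and 58.8% (trend removed). No member changed sign under TMM, median-of-ratios, rescaling or either pseudocount. The changes in sign under the others were at Srsf4 and Srsf9 (centred), these and Hnrnpul1 (FPKM), Hnrnpa1 (copies summed), and Hnrnpu and Hnrnpr (trend removed). Members past the filter had from 2498 to 71842 reads. Variation between cultures was not measured. No paired analysis was possible because each genotype had 1 library.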

Other observations

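Several genes on the opposite strand overlap exons of the families, and the use of strand in the counting is not known. Cox20 shares 804 exon bases with Hnrnpu and had 222 reads in E14 and 404 in Sox2 T258A. Gm12992 shares 1532 with Srsf4 and had 225 and 140 reads, Phykpl shares 809 with Hnrnpab and had 228 and 218, and Rmi1 shares 330 with Hnrnpk and had 2495 and 2301. At Srsf2, Mettl23 (462 and 420 reads) and Mfsd11 (971 and 485 reads) overlap by 460 and 288 exon bases. Each had fewer reads than the family member it overlaps.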
